A study of Mus musculus with 2 samples.

Results

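The AP-1 and Egr immediate early genes were followed in single cell RNA-seq data of neonatal mouse hearts. The 10 genes were chosen by name, as the rows of the deposited feature table with the symbols Fos, Fosb, Fosl1, Fosl2, Jun, Junb, Jund, Atf3, Egr1 and Ier2, out of 31053 genes in the table. All 10 were found in both libraries. The data comprised 1 library from hearts at postnatal day 1 (P1) and 1 from hearts at postnatal day 7 (P7), and each library was made from 3 hearts of a single litter that were pooled before dissociation. P1 hearts were digested for 20 min and P7 hearts for 45 min in collagenase II (500 units/ml at 37 °C), red blood cells were lysed, and live cells were sorted after a 7-AAD stain. The labels give no genotype, strain, sex or treatment for either pool. Since there was 1 library per age, no test between ages was possible, and age, digestion time, litter and library preparation cannot be told apart.

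Fos (chr12:85473890-85477273), Fosb (chr7:19302696-19310051), Fosl1 (chr19:5447547-5455946) and Fosl2 (chr5:32135801-32157842) encode the Fos proteins. Jun (chr4:95049034-95052222), Junb (chr8:84974484-84978718) and Jund (chr8:70698949-70700616) encode the Jun proteins. Atf3 (chr1:191170296-191218039) encodes a stress-responsive factor that pairs with Jun proteins, Egr1 (chr18:34859823-34864984) a zinc finger factor, and Ier2 (chr8:84661331-84662852) a small nuclear protein of the same early response. Positions are those of the GENCODE M21 gene models on GRCm38.

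AP-1 is a family of dimers that bind DNA through basic leucine zippers. Jun proteins can pair with each other or with Fos proteins, whereas Fos proteins need a Jun partner, so the mixture of dimers in a cell depends on which subunits it makes. Together with the zinc finger factor Egr1 these genes are immediate early genes, whose transcription begins within minutes of a stimulus such as a growth factor, stretch or stress and needs no new protein synthesis. Their mRNAs are short-lived. Dissociation of tissue at 37 °C is a known stimulus for this set, which is why the level of these genes in a cell suspension need not be the level in the intact heart.

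Promoter sequences are shown for Fos, Fosb, Jun and Junb. The mRNAs of Fosb, Jun and Junb varied with that of Fos over endothelial cells and fibroblasts, as described further on. Members that varied with Fos but had no window that could be described are not shown. RefSeq windows on GRCm38.p6 of 300 bases, from 250 bases before a RefSeq start to 50 after it, were found for 7 of the 10 members, namely Fos, Fosb, Fosl2, Jun, Junb, Jund and Atf3. The windows of Fosl2, Jund and Atf3 do not span the starts of the gene models given above and are not described. Fosl1, Egr1 and Ier2 had no entry that was used here. Capitals mark motifs found by a search of both strands. The motifs were the cyclic AMP response element (CRE) TGACGTCA, its core TGACG, the AP-1 site TGANTCA, the variant TGACATCA, the Egr site GCGNGGGCG, the TATA box TATAAA and the CArG box bound by SRF. Each CRE also holds its core.
Fos (chr12:85473640-85473939, plus strand): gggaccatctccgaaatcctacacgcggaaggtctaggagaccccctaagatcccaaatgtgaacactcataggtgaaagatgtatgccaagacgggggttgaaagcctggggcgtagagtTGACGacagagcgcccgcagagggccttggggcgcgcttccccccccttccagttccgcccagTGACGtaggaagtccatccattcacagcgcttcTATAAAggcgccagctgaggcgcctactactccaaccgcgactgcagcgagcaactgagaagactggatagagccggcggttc
Fosb (chr7:19309996-19310295, minus strand): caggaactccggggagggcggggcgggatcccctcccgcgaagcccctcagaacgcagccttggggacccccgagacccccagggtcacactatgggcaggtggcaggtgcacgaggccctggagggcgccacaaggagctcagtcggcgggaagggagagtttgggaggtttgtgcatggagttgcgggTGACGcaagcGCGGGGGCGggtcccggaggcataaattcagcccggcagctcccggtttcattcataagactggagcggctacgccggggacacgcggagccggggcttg
Jun (chr4:95052173-95052472, minus strand): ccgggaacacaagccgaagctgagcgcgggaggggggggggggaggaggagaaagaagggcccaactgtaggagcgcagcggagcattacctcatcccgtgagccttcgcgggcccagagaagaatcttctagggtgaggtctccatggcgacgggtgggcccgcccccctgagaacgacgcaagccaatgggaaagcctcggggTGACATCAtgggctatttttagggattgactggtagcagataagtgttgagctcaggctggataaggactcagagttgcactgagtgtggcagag
Junb (chr8:84978699-84978998, minus strand): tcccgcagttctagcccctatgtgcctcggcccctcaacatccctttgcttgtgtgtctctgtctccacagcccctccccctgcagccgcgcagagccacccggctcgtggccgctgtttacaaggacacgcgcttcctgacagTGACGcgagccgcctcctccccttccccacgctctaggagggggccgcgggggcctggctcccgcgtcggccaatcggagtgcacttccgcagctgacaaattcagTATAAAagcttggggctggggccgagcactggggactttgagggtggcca
In the Fos window the CRE core lay 129 and 66 bases before the start and a TATA box 33 bases before it. The Fosb window held a CRE core at 60 bases and an Egr site at 50 bases before the start. The Jun window held TGACATCA 45 bases before the start, and the Junb window a CRE core 106 bases before it and a TATA box at the RefSeq start. The Junb gene model given above starts downstream of that RefSeq start, so both motifs lie upstream of the model's start. Of 32851 windows of the same length, 20.8% held the CRE core, 1.79% the whole CRE, 7.81% the AP-1 site, 3.62% TGACATCA, 5.55% the Egr site, 13.6% the TATA box and 1.63% a CArG box. None of the 4 windows shown held the whole CRE, the AP-1 site or a CArG box. Bases more than 250 before the RefSeq start were not searched, so such sites further upstream would be missed. These matches describe letters only, and a match does not show that a factor binds.

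Barcodes were kept when they held 200 to 8000 genes and at most 20% mitochondrial UMIs, so that 4991 cells remained at P1 and 8511 at P7. UMIs are unique molecular identifiers, which count each captured mRNA once. The kept cells held 59026295 UMIs at P1 and 97432007 at P7, with medians of 10875 and 10104 UMIs per cell, and 13 kept barcodes occurred in both libraries. Levels are UMIs of a gene per 1000000 UMIs (CPM), summed over the cells of a class, with exact Poisson 95% intervals. Ratios between ages are log2 values of P1 over P7, computed after 0.5 was added to both summed counts, with exact conditional binomial intervals. These intervals cover counting error only, not differences between animals or between the cells of a class. Statements that intervals of levels or ratios lie apart, or exclude equal levels, refer to counting error alone. Reads come from the 3′ ends of mRNAs, so CPM was not divided by gene length. A difference over 2-fold is reported as past the threshold, beside the share of all measured genes that were.

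Classes were gated by single markers. A cell was placed in a class when it had at least 1 UMI of the class marker and none of the other 6 markers, which gave 1627 cells at P1 and 3083 at P7 for Cdh5 (endothelium), 1081 and 2085 for Pdgfra (fibroblasts), 121 and 305 for Myh11 (smooth muscle), 200 and 331 for Kcnj8 (pericytes), 225 and 185 for Csf1r (macrophages), 4 and 184 for Cd3e (T cells) and 32 and 9 for Upk3b (epicardium). All 8 supporting markers of each class, and all 9 of the epicardium, were detected in its gate at both ages. Detection alone does not tell gates apart. All 8 fibroblast markers were also detected in the Cdh5 gate, at a sum of 853 and 1305 CPM. The supporting markers of the endothelium reached 5237 (P1) and 5555 CPM (P7) in the Cdh5 gate, against 71.0 and 128 CPM in the Pdgfra gate. Several gates were mixed. The 8 neutrophil markers summed to 11302 (P1) and 2762 CPM (P7) in the Csf1r gate and to 5718 and 1205 CPM in the Myh11 gate. The macrophage markers of the Csf1r gate summed to 6530 and 9416 CPM, so at P1 the neutrophil markers exceeded them. This class is called macrophages by its gate only. In the Kcnj8 gate the fibroblast markers (9278 and 14997 CPM) exceeded the pericyte markers (5826 and 10739 CPM), and these cells are called pericytes by their gate only. In the Upk3b gate the fibroblast markers (19502 and 20589 CPM) likewise exceeded the epicardial markers (5512 and 5642 CPM). The 4 cells of the Cd3e gate at P1 carried 893 CPM of T cell markers and 9132 CPM of fibroblast markers, and 20 of the 32 Upk3b cells at P1 had a UMI of Hoxa5, Tbx4 or Foxf1, which are typical of lung. The Cd3e and Upk3b gates are therefore described apart from the 5 classes with at least 100 cells at each age. A UMI of Hoxa5, Tbx4 or Foxf1 was also present at P1 in 172 Cdh5, 43 Pdgfra, 12 Myh11 and 22 Kcnj8 cells. At P7 it was present in 113, 27, 12 and 23 cells of the same gates.

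Fos differed far more between cell classes than between ages. It was highest in macrophages, at 3258 CPM (95% interval 3185 to 3332) at P1 and 3617 CPM (3530 to 3705) at P7. Smooth muscle followed with 2996 and 2400 CPM, fibroblasts with 1319 and 1101 CPM and pericytes with 1033 and 910 CPM, and endothelium was lowest with 297 and 281 CPM. No neighbours in this order had overlapping intervals for counting error at either age. Fos counts varied more between cells than these intervals allow. At equal depth per cell, the variance over the mean was 7.83 (P1) and 10.5 (P7) in macrophages. In smooth muscle it was 5.20 and 4.06. The order of neighbouring classes was not tested against that spread. The highest class exceeded the lowest by 11-fold at P1 and 12.9-fold at P7, whereas the ages differed by at most 1.25-fold in any of these 5 classes.

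The other Fos genes had orders of their own. Fosb, the closest relative of Fos, was highest in smooth muscle at 829 CPM at P1, followed by fibroblasts at 423 CPM, with pericytes (347 CPM) and macrophages (333 CPM) not apart and endothelium at 66.3 CPM. At P7 smooth muscle (378 CPM) and macrophages (350 CPM) were not apart. Fosl2, which encodes Fra-2, was low in the 5 large classes, between 22.3 and 65.4 CPM at P1 and between 18.7 and 74.8 CPM at P7. Its highest value was in macrophages at both ages, not apart from smooth muscle. Cells with at least 3 neutrophil markers and no gate marker had 149 and 251 CPM. Fosl1, which encodes Fra-1, was near the limit of detection, with 16 UMIs in all kept cells at P1 and 12 at P7, in 13 and 12 cells. In smooth muscle it was found in 0 of 121 cells at P1 and 0 of 305 at P7, which allows shares with a UMI of up to 3.00% and 1.20% (exact Clopper-Pearson interval).

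The Jun genes were spread more evenly over the classes than Fos and Fosb. Junb still ranged 4.73-fold at P1 and 5.10-fold at P7, more than Fosl2 (2.94-fold and 4.01-fold). Jund, which encodes the Jun protein least dependent on stimulation, ranged from 828 CPM in endothelium to 1764 CPM in smooth muscle at P1 and from 959 CPM in endothelium to 1701 CPM in fibroblasts at P7, a range of 2.13-fold and 1.77-fold. Jun was highest in smooth muscle, at 1553 and 1502 CPM, and lowest in endothelium, at 437 and 629 CPM. Junb followed the order of Fos, from 2265 and 2167 CPM in macrophages through 1728 and 1473 CPM in smooth muscle to 479 and 425 CPM in endothelium. Without cells that carried at least 3 neutrophil markers, Junb at P1 was at 1758 CPM in macrophages and 1744 CPM in smooth muscle.

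Among the remaining members, Atf3 was the most restricted. It measured 380 and 540 CPM in macrophages, 151 and 158 CPM in smooth muscle, and 32.9 and 31.0 CPM in endothelium. Egr1 was similar in smooth muscle (902 CPM) and fibroblasts (855 CPM) at P1, whose intervals overlapped, and again lowest in endothelium at 220 CPM. At P7 it measured 651 CPM in macrophages, 631 CPM in fibroblasts, 575 CPM in smooth muscle, 389 CPM in pericytes and 161 CPM in endothelium. Ier2 lay between 485 CPM in endothelium and 1317 CPM in macrophages at P1 and between 497 and 1368 CPM in the same classes at P7.

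**Figure D1:**
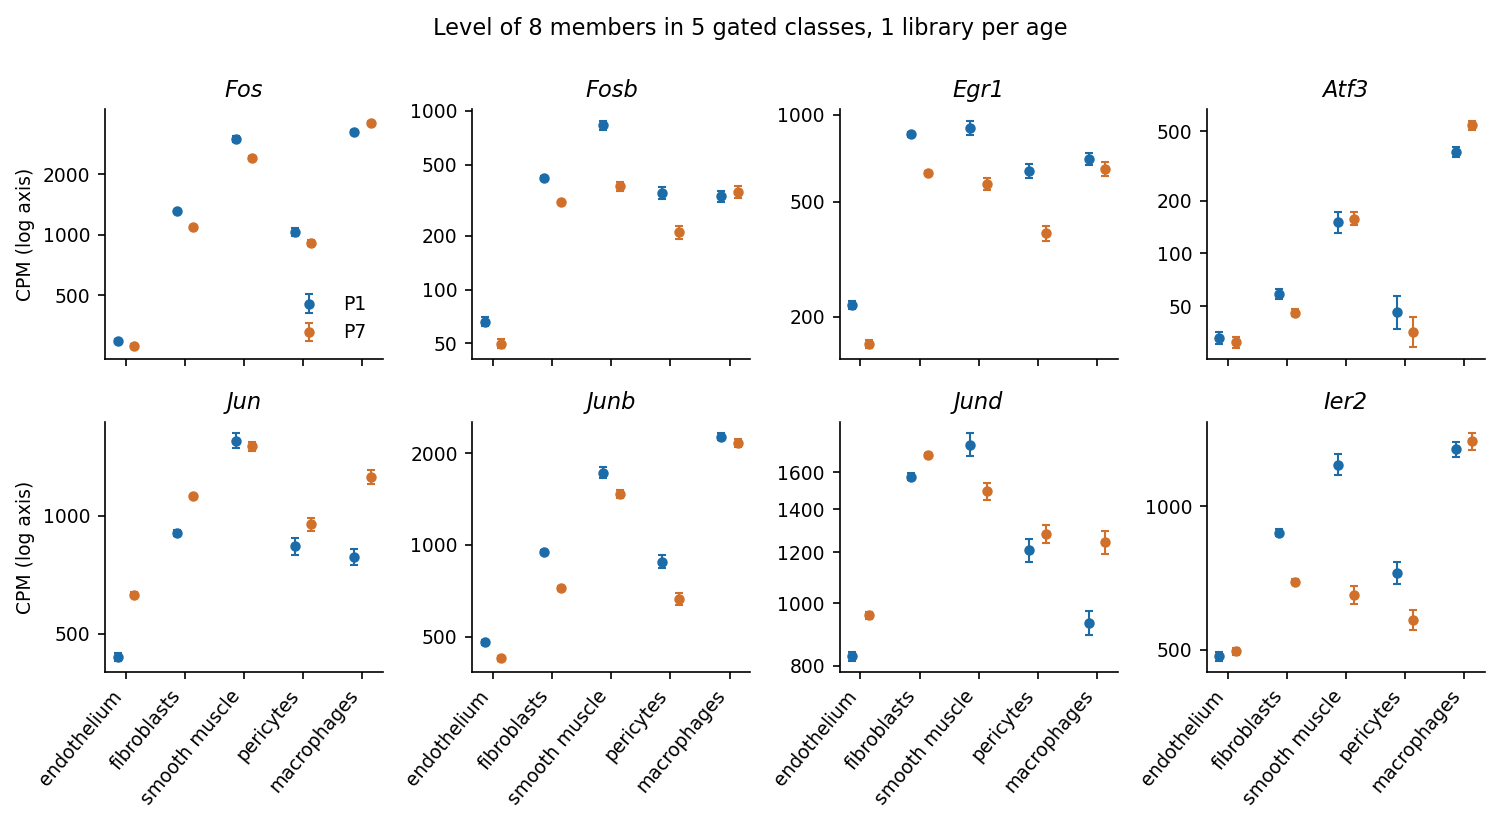
Level of 8 members in 5 gated classes. Each panel gives CPM on a log axis for the cells of a class at P1 (blue) and P7 (orange), with exact Poisson 95% intervals and 1 library per age. Endothelium is the lowest class for every gene shown, and for Fos the macrophages at 3258 and 3617 CPM lie above all other classes.

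Markers of neutrophils moved with the myeloid and smooth muscle gates. When cells with at least 3 of the 8 neutrophil markers were left out, the Csf1r gate kept 160 cells at P1 and 159 at P7. Fos then measured 2873 and 3317 CPM in it, against 2977 and 2411 CPM in the Myh11 gate, so at P1 the macrophages no longer stood above smooth muscle. Cells with at least 3 neutrophil markers and no gate marker, 123 at P1 and 37 at P7, had more Fos than any of the 5 classes, at 4209 and 4097 CPM, and Junb at 4413 and 5257 CPM, with Jun at only 307 and 244 CPM. Cells with at least 3 B cell markers and no gate marker, 28 and 77, had 154 and 535 CPM of Fos, with Jund at 1663 and 2183 CPM. Cells with at least 3 cardiomyocyte markers, 138 and 95, had 867 and 686 CPM of Fos.

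Over all kept cells, 1 of the 10 members was past 2-fold in the direction of P1 and 0 in the direction of P7. Of the 16552 genes with at least 20 summed UMIs, 8.88% were past 2-fold towards P1 and 4.07% towards P7. The 1 member was Fosl1, whose log2 ratio of 1.12 rested on 16 UMIs at P1 and 12 at P7 and had an interval from -0.03 to 2.35. The members' median log2 ratio was 0.24, beside 0.00 for all genes. Fos measured 1132 CPM at P1 and 948 CPM at P7, which gave 0.26 on the log2 scale (0.24 to 0.27). Fosb (301 and 217 CPM), Fosl2 (29.2 and 25.3 CPM), Junb (898 and 725 CPM), Atf3 (69.5 and 59.4 CPM), Egr1 (605 and 467 CPM) and Ier2 (740 and 641 CPM) were also higher at P1, with log2 ratios from 0.21 to 0.47. Jun (747 and 948 CPM, log2 ratio -0.34) and Jund (1233 and 1403 CPM, log2 ratio -0.19) were higher at P7. When every cell was given the same weight, by thinning to 2000 UMIs or by the mean of per-cell CPM, the median was 0.52 in each case.

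Within the 5 large classes the age differences were small. In endothelium 0 of 9 members with at least 20 UMIs were past 2-fold in either direction, where 5.56% of genes were past it towards P1 and 3.54% towards P7. Fibroblasts had 0 and 0 of 9, beside 6.80% and 4.28% of genes. Pericytes had 0 and 0 of 9, beside 3.59% and 2.91%, and macrophages 0 and 0 of 9, beside 3.91% and 3.39%. In smooth muscle 1 of 9 members was past 2-fold towards P1 and 0 towards P7, beside 5.55% and 3.80% of genes. That member was Fosb, with 829 CPM (780 to 880) at P1 and 378 CPM (357 to 401) at P7, which gave 1.13 on the log2 scale (1.01 to 1.25). With a mitochondrial limit of 10% it was at 1.00 and no longer past 2-fold.

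The direction of these small differences depended on the gene. Egr1 was higher at P1 in all 5 classes with an interval above 0, by 0.46 on the log2 scale in endothelium, 0.44 in fibroblasts, 0.65 in smooth muscle, 0.72 in pericytes and 0.11 in macrophages. Junb was higher at P1 in all 5, by 0.06 to 0.41. Without the cells that carried neutrophil markers, the macrophage value of Junb was -0.11 and that of Egr1 was 0.08 with an interval from -0.04 to 0.20. With other gate markers admitted, their intervals in macrophages reached or spanned 0, at 0.05 for both. In macrophages with 5000 to 20000 UMIs, Egr1 was at -0.13. Fos was higher at P1 in 4 classes, by 0.08 to 0.32, and lower in macrophages, at -0.15 (-0.20 to -0.10). Its endothelial value of 0.08 was -0.08 when cells with other gate markers were admitted and 0.42 after thinning. Its pericyte value of 0.18 was 0.06 without cells that had a UMI of Hoxa5, Tbx4 or Foxf1, and 0.57 after thinning. Fosb was higher at P1 in the same 4 classes, by 0.41 to 1.13, and in macrophages its interval spanned 0. In macrophages with 5000 to 20000 UMIs Fosb was at -0.85, and without cells that carried neutrophil markers at 0.05. With other gate markers admitted, Fosb in endothelium was at 0.07 (-0.01 to 0.14). Ier2 was higher at P1 in fibroblasts (0.34), smooth muscle (0.91) and pericytes (0.32).

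Jun went the other way. It was lower at P1 in endothelium, with 437 CPM against 629 CPM and a log2 ratio of -0.53, in fibroblasts (-0.31), in pericytes (-0.19) and in macrophages, with 784 CPM against 1255 CPM and a log2 ratio of -0.68. In smooth muscle it measured 1553 and 1502 CPM, a log2 ratio of 0.05 with an interval from -0.03 to 0.12, and 0.09 (0.01 to 0.16) without cells that carried neutrophil markers. With other gate markers admitted, Jun was at -0.10 (-0.15 to -0.04) in smooth muscle and at 0.01 (-0.03 to 0.05) in pericytes. In macrophages Jun was at -0.56 with other gate markers admitted and at -1.20, past 2-fold, in cells with 5000 to 20000 UMIs. Jund was lower at P1 in endothelium, fibroblasts, pericytes and macrophages, by -0.42 to -0.08, and higher in smooth muscle at 0.24. Its pericyte value of -0.08 turned to 0.06 with other gate markers admitted and after thinning. Atf3 was higher at P1 in fibroblasts (0.35) and lower in macrophages (-0.51), and its interval spanned 0 in the other 3 classes. Its fibroblast value was 0.03 in cells with 5000 to 20000 UMIs and 0.45 after thinning. With 2 supporting markers Atf3 in pericytes was at 0.90 (0.42 to 1.39). With at least 2 UMIs of the gate marker it was at 0.27 (0.10 to 0.43) in endothelium. Fosl2 had an interval that excluded 0 in endothelium alone of the 5 classes (0.32, from 0.13 to 0.51).

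**Figure D2:**
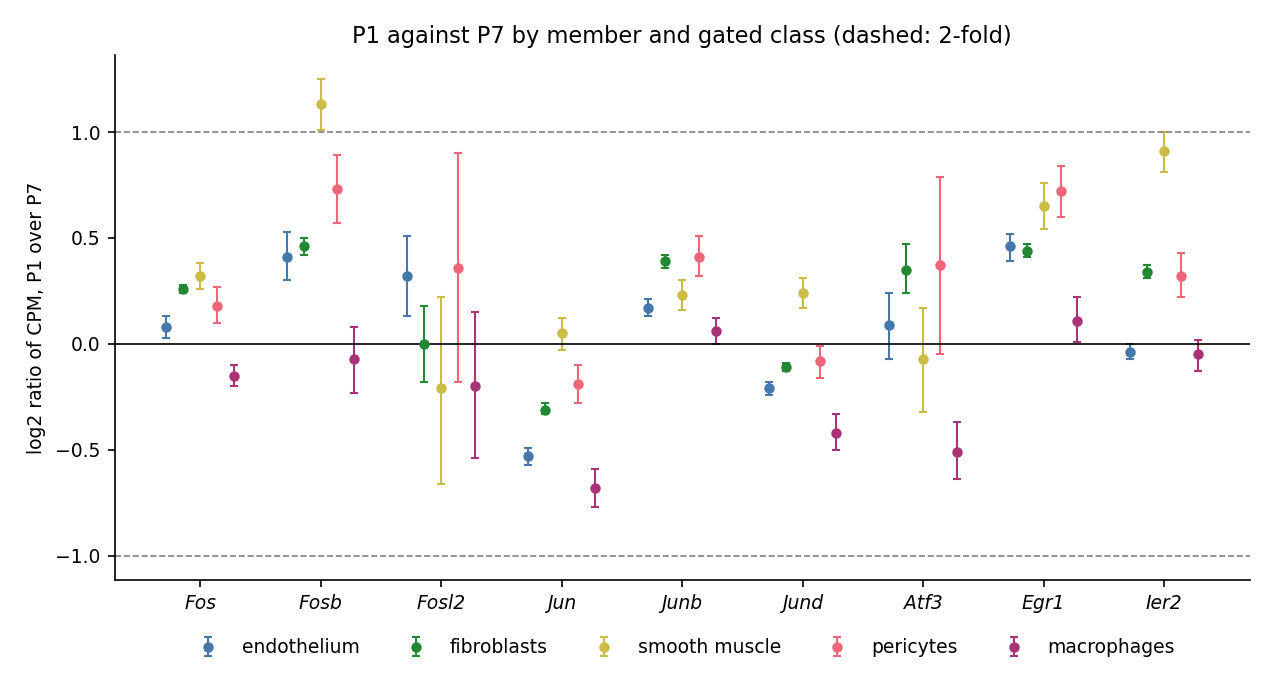
Difference between ages for 9 members in 5 gated classes. Points are log2 ratios of CPM, P1 over P7, with exact 95% intervals for counting error, and dashed lines mark 2-fold. Fosb in smooth muscle, at 1.13, is the only point beyond a dashed line, and Jun lies below 0 in 4 of the 5 classes.

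The small gates gave wide intervals. With 4 cells at P1, the Cd3e gate had 4 members past 2-fold towards P1 and 1 towards P7 of 8, where 19.6% of genes were past it towards P1 and 24.1% towards P7. With 32 and 9 cells, the Upk3b gate had 4 of 9 members past 2-fold towards P1 and 0 towards P7, beside 9.75% and 7.39% of genes. The 4 were Fosb (28 UMIs at P1 and 0 at P7), Junb (131 and 6), Atf3 (41 and 2) and Egr1 (144 and 8). Without cells that had a UMI of Hoxa5, Tbx4 or Foxf1, 12 cells at P1 and 8 at P7, the Upk3b gate had 2 members past 2-fold towards P1 and 1 towards P7, and when cells with other gate markers were admitted it had 0 towards P1. The share of all genes was not computed for these settings. In the 184 Cd3e cells at P7, Junb (1087 CPM) and Jund (984 CPM) were the highest members, with Fos at 327 CPM and Egr1 at 87.3 CPM.

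A ratio of 2 genes within a class does not depend on the scaling between libraries. Over all kept cells there were 1.52 Fos UMIs per Jun UMI at P1 (95% interval 1.50 to 1.53) and 1.00 at P7 (0.991 to 1.01). The ratio was higher at P1 in each of the 5 large classes, with intervals apart. It was 0.680 and 0.446 in endothelium, 1.46 and 0.983 in fibroblasts, 1.93 and 1.60 in smooth muscle, 1.24 and 0.957 in pericytes, and 4.16 and 2.88 in macrophages. Without cells that carried neutrophil markers it was 3.22 and 2.49 in macrophages. At P7 fibroblasts and pericytes had overlapping intervals.

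**Figure D3:**
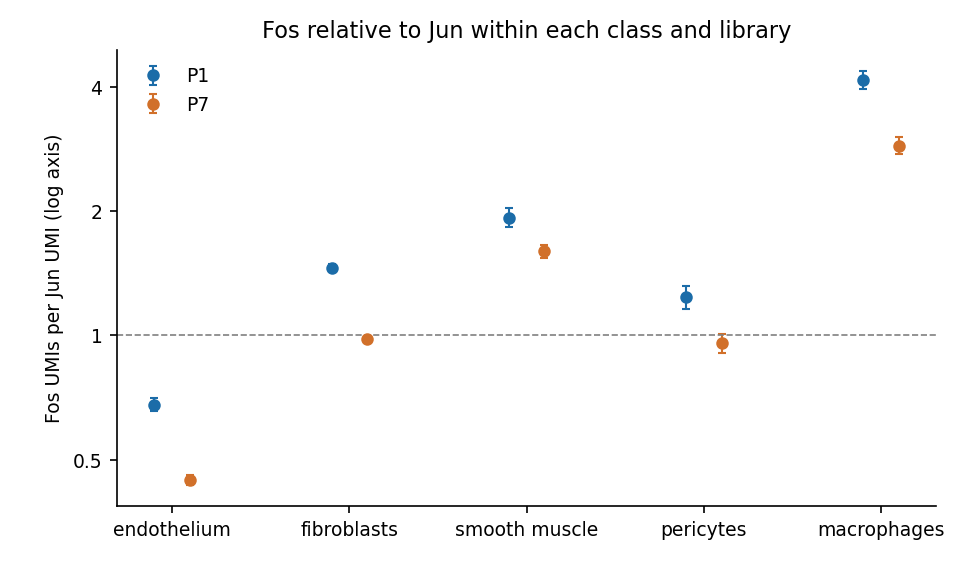
Fos UMIs per Jun UMI in 5 gated classes, on a log axis, at P1 (blue) and P7 (orange), with exact 95% intervals for counting error. P1 lies above P7 in every class, from 0.680 against 0.446 in endothelium to 4.16 against 2.88 in macrophages.

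The same comparison was made in narrower sets of cells. Within the Cdh5 gate, cells with a UMI of Aplnr, Car4, Gja5, Npr3 or Lyve1, and within the Pdgfra gate, cells with a UMI of Dpep1, Pi16, Gdf10 or Fmod, were summed apart, and some cells belong to several of these sets. Fos per Jun was higher at P1 in 9 of the 9 sets, with intervals apart in 8. It ranged from 0.478 at P1 and 0.264 at P7 in Lyve1 cells to 1.84 and 1.32 in Fmod cells. Fos itself was highest in the Fmod set, at 2068 and 1421 CPM, against 1140 and 1076 CPM in the Dpep1 set. In the Gja5 set, 51 and 155 cells, both Fos (262 and 370 CPM) and Junb (307 and 515 CPM) were higher at P7, with intervals apart. In the Aplnr, Car4 and Lyve1 sets both genes were higher at P1. In the Npr3 set Junb was higher at P1 (281 and 228 CPM), and the intervals of Fos overlapped (214 and 244 CPM). Bins of depth were made over all kept cells, endothelium and fibroblasts. There the ratio was higher at P1 in 12 of 12 pairs, with intervals apart in 11. In bins of mitochondrial share it was higher at P1 in 11 of 12, with intervals apart in 10. The exception was endothelium with 10 to 20% mitochondrial UMIs, at 0.420 and 0.568. All kept cells include the endothelial and fibroblast cells, and every set cuts the same 1 library per age. These counts are therefore not repeats of the comparison between ages. In the smaller groups set by other markers the order was mixed. Cardiomyocytes had 1.70 at P1 and 0.773 at P7 and erythroid cells 2.77 and 1.07, whereas glia had 0.877 and 1.38 and B cells 0.247 and 1.94. Neutrophils had 13.7 and 16.8, with overlapping intervals.

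The UMIs of the 7 Fos and Jun genes together gave the share of each mRNA in a class. Protein was not measured, so these shares are not those of the subunits. Jund took 38.9% of them at P1 and 40.6% at P7 in endothelium, and Fos 13.9% and 11.9%. In macrophages Fos took 42.7% and 41.5% and Junb 29.7% and 24.9%, with Jund at 12.2% and 14.3%. In fibroblasts Jund took 30.3% and 34.2%, Fos 25.4% and 22.1%, and Jun 17.4% and 22.5%. The Jun genes summed to 81.9% at P1 and 85.2% at P7 in endothelium, to 66.0% and 71.2% in fibroblasts, to 67.5% and 71.7% in pericytes, to 56.6% and 61.2% in smooth muscle, and to 52.1% and 53.6% in macrophages. In all 5 classes the Jun share was higher at P7, but in macrophages the intervals overlapped (51.4 to 52.9 at P1 and 52.8 to 54.4 at P7).

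The members differed in how evenly cells carried them. For this each cell was thinned to 2000 UMIs, and 574 cells at P1 and 727 at P7 below that depth were left out. In endothelium the 10% of cells with most Fos held 78.6% of the Fos UMIs at P1 and 79.9% at P7, whereas the corresponding shares for Jund were 31.8% and 31.6%. The median endothelial cell had 0 Fos UMIs, and the highest had 33 at P1 and 32 at P7. In smooth muscle the top 10% held 29.9% and 30.8% of Fos, with medians of 5 and 3.5 UMIs per cell. For Egr1 the top 10% held 72.2% and 76.6% in endothelium, and 36.5% and 37.6% in fibroblasts. A low mean count raises this share by itself. The variance over the mean differed less between classes, but for unevenly spread counts it rises with the mean. Neither measure alone therefore compares evenness between classes of unlike mean. For Egr1 the variance over the mean was 3.15 and 2.45 in endothelium and 2.62 and 1.95 in fibroblasts. For Fos it was 5.94 and 4.84 in endothelium, at means of 0.616 and 0.459 UMIs per cell. In smooth muscle it was 5.20 and 4.06, at means of 5.95 and 4.40.

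The share of cells with a UMI followed. After thinning, Fos was found in 22.4% (20.3 to 24.6) of endothelial cells at P1 and 19.3% (17.8 to 20.8) at P7, in 63.5% and 59.4% of fibroblasts, and in 86.5% and 90.9% of macrophages. The shares before thinning were 41.7% and 34.2%, 79.9% and 80.5%, and 94.2% and 95.1%. Jund was found in 71.8% to 91.3% of cells of each large class after thinning. Atf3 was found in 4.43% and 3.62% of endothelial cells after thinning and in 38.2% and 56.6% of macrophages. Free RNA in the suspension can give UMIs to any cell. No class was known to lack Fos, so no background share could be set, and shares in endothelium and macrophages differed well beyond counting error at the same depth.

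Members varied together from cell to cell. Pearson r between log2(thinned count + 1) of Fos and of each of 4029 other genes and of the members was taken in 4 sets of cells, which were 1511 and 2846 endothelial cells and 1037 and 2064 fibroblasts at P1 and P7. Cells of a set share a library, a gate and a depth of 2000 UMIs, and no p is given. The mean r over the 4 sets was 0.49 for Junb, 0.46 for Fosb, 0.45 for Egr1, 0.38 for Jun, 0.36 for Ier2 and 0.29 for Jund, and each of these was positive in all 4 sets. The median over all genes was 0.00 and the 95th percentile 0.03. Atf3, Fosl1 and Fosl2 were too sparse for this comparison. Where Fosl2 could be paired with Fos, in 7 sets of fibroblasts, smooth muscle, pericytes and macrophages, the median r was 0.08. Between Jun and Junb the median r over 10 sets of the 5 large classes was 0.34. Its lowest value, -0.02, was that of macrophages at P1.

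The 10 genes outside the members that varied most with Fos were also immediate early genes. They were Zfp36 (mean r 0.39), which encodes an mRNA decay factor, Btg2 (0.37), an antiproliferative gene, Socs3 (0.28), an inhibitor of cytokine signalling, Dusp1 (0.24), a MAP kinase phosphatase, Cyr61 (0.22), a matricellular gene, Cebpd (0.21), Klf2 (0.20), Ppp1r15a (0.17), Ier3 (0.15) and Klf6 (0.15). All 10 belonged to the list of 34 other immediate early genes, of which 17 were abundant enough to be compared, and 14 of those 17 were among the 30 highest. The list was chosen with earlier results of these data known, so this overlap is a description and not independent evidence. The 30 also held matrix genes, among them Eln (0.11), Bgn (0.10) and Col1a2 (0.09). These r values are moderate to weak and describe cells, not animals. In endothelium at P1 the 115 cells with 3 or more thinned Fos UMIs carried a mean of 4.57 Junb and 2.09 Egr1 UMIs, against 0.523 and 0.226 in the 1173 cells with none. Jund differed less, at 3.13 against 1.40. When the Cdh5 gate also asked for 2 supporting markers, 1580 of 1627 cells at P1 and 3028 of 3083 at P7 remained. They held 4694 of the 5322 Fos UMIs at P1 and 6563 of 7191 at P7. The kind of the cells left out was not tested, and they count as endothelium in the values above.

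**Figure D4:**
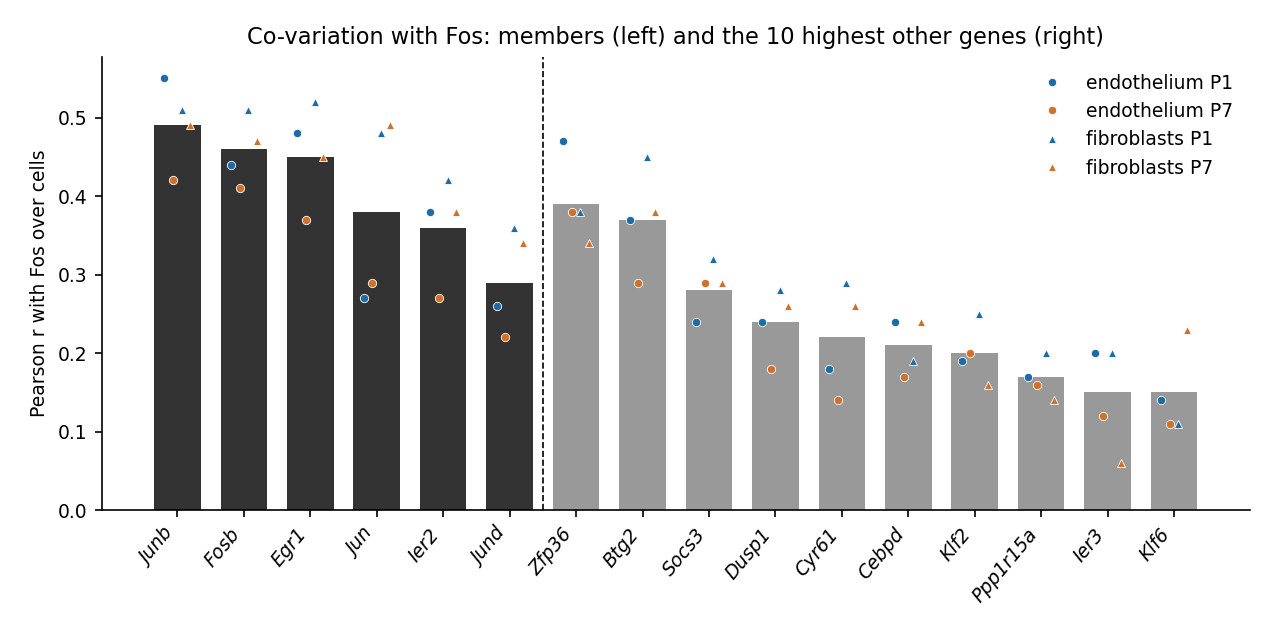
Pearson r with Fos over cells for 6 members (dark bars) and the 10 other genes with the highest mean (grey bars). Bars are means over 4 sets of cells, and points are the sets, circles for endothelium and triangles for fibroblasts, blue for P1 and orange for P7. Junb has the highest mean, at 0.49, and Zfp36, at 0.39, the highest outside the members.

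The depth of the cells moved with the level of several members. In endothelial cells with fewer than 5000 UMIs, Fos measured 458 CPM (P1) and 180 CPM (P7), and in those with 20000 or more it measured 285 and 483 CPM, so the direction of the difference turned with depth. In fibroblasts Fos was higher at P1 in each bin, at 1493 and 1131 CPM in the shallowest and 1232 and 1128 CPM in the deepest. Egr1 turned in endothelium as Fos did, from 348 and 145 CPM to 200 and 244 CPM. Jun was lower at P1 in all 4 bins of both classes, with overlapping intervals in endothelial cells under 5000 UMIs (496 and 542 CPM). The part of depth in the age differences was not tested.

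**Figure D5:**
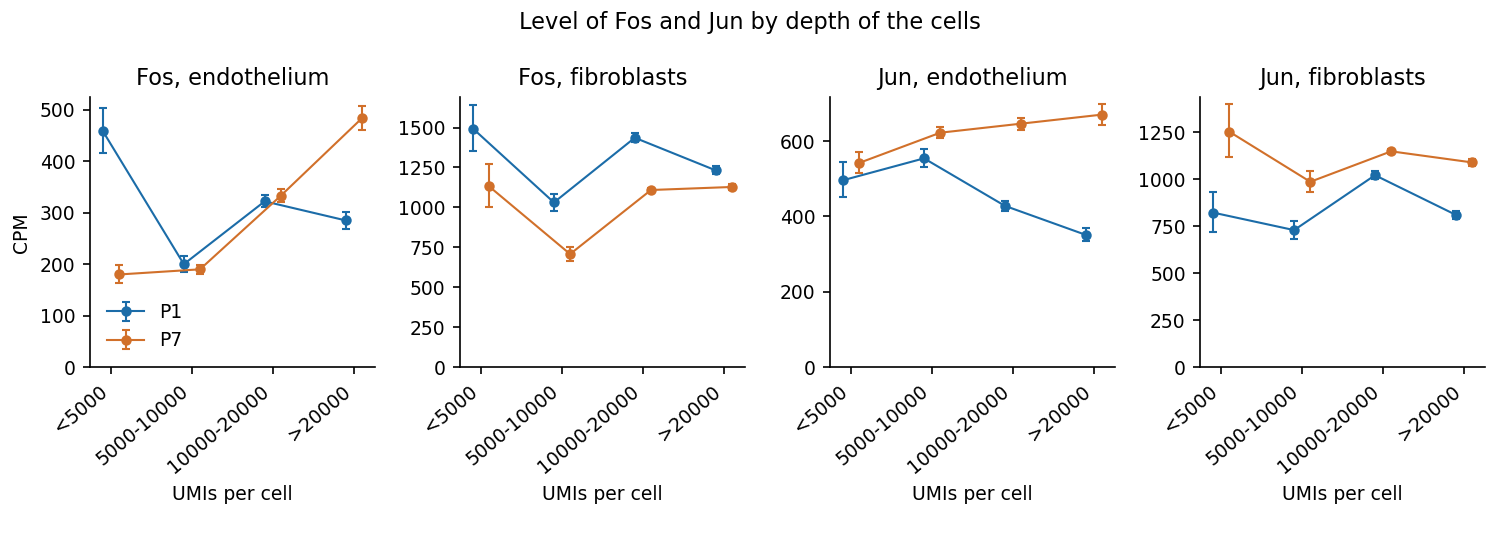
Fos and Jun in endothelium and fibroblasts by the number of UMIs per cell, in CPM at P1 (blue) and P7 (orange), with exact Poisson 95% intervals. Fos in endothelium goes from 458 against 180 CPM in the shallowest cells to 285 against 483 CPM in the deepest, and Jun is lower at P1 in every bin shown.

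Pathway lists around the members were compared over all kept cells. Of 34 other immediate early genes 33 had at least 20 UMIs. None of the 33 was past 2-fold in either direction (0 and 0), 23 had a ratio above 0, and the median was 0.25, beside 0.00 for all genes. By class the median was 0.07 in endothelium, 0.34 in fibroblasts, 0.42 in smooth muscle, 0.30 in pericytes and -0.20 in macrophages. The largest ratios towards P1 were those of Egr2 (10.2 and 6.02 CPM, log2 ratio 0.76), a relative of Egr1, Sgk1 (0.74) and Csrnp1 (0.72). The largest towards P7 were those of Klf2 (624 and 1198 CPM, -0.94), Nr4a3 (-0.89) and Klf4 (-0.66). Klf2, a flow-responsive factor of endothelium, was at -0.55 in endothelium and at -1.55 in fibroblasts.

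Of 24 other bZIP partners, 0 were past 2-fold in either direction and the median was -0.01. Batf2 (0.95), Maf (0.71) and Batf (0.67) led towards P1 and Atf5 (-0.79), Creb5 (-0.69) and Crem (-0.69) towards P7. Of 26 genes of upstream MAPK, SRF and CREB signalling, 0 were past 2-fold towards P1 and 1 towards P7, beside 8.88% and 4.07% of all genes, with a median of 0.02. The 1 gene was Map3k5 (3.54 and 7.32 CPM, -1.04), a stress-activated kinase, followed by Srf (-0.37) and Rps6ka3 (-0.29), and Rps6ka1 (0.28), Map2k4 (0.15) and Map2k3 (0.14) led towards P1.

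Of 20 feedback genes, 1 was past 2-fold towards P1 and 0 towards P7, beside 8.88% and 4.07% of all genes, with a median of -0.08. Dusp4, a nuclear MAP kinase phosphatase, measured 9.10 and 2.73 CPM (1.74), and in fibroblasts 15.1 and 0.772 CPM (4.27, from 253 and 27 UMIs). Dusp2 (0.60) and Dusp5 (0.50) followed. Dusp10 (-0.93), Spry1 (-0.54) and Dusp1 (335 and 486 CPM, -0.54) led towards P7. Dusp1 varied with Fos over cells but was lower at P1 in all 5 classes, from -1.16 in smooth muscle to -0.27 in pericytes. Of 18 heat shock genes, 0 were past 2-fold in either direction and the median was -0.09. Hsp90ab1 (0.30), Hspb8 (0.28) and Hspa8 (0.26) led towards P1 and Hsph1 (-0.49), Hspa1a (-0.48) and Cryab (-0.31) towards P7.

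Of 26 genes often given as AP-1 or Egr targets, 25 had at least 20 UMIs, of which 5 were past 2-fold towards P1 and 2 towards P7, beside 8.88% and 4.07% of all genes, with a median of 0.28. Mmp9 (14.3 and 3.17 CPM, 2.17) and Mmp13 (0.779 and 0.174 CPM, 2.13) are matrix metalloproteinases, and 46 of the 46 Mmp13 UMIs at P1 lay in the Csf1r gate, where the neutrophil markers also differed between ages. Mmp3 (1.45) followed on 35 and 21 UMIs. Of the Mmp9 UMIs, 177 of 844 at P1 and 54 of 309 at P7 lay in the Csf1r gate. Among all kept cells, 253 at P1 and 94 at P7 had at least 3 neutrophil markers. Their part in the Mmp9 ratio was not tested. Lif (-1.17) and Plau (-0.93) were among those that led towards P7. Whether any of these genes followed the members was not tested.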

How the data were processed

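Single cell RNA-seq was performed on 1 library per age (P1, P7). The authors deposited, per library, the raw UMI counts of genes in barcodes as a sparse matrix, without normalisation. Per the labels, reads were processed with Cell Ranger 3.1.0 on mm10 (GRCm38). The values here were computed from these counts in python 3.11.15 (numpy 2.4.6, scipy 1.17.1, pandas 2.3.3, matplotlib 3.10.9). Cells with 200 to 8000 genes and at most 20% mitochondrial UMIs were kept, the last limit being set here. No doublet caller was run, and cells with several gate markers (765 at P1, 1383 at P7) entered the values over all kept cells and, as an alternative, the classes with other gate markers admitted. Harmony, Seurat and MAST, used in the study, were not run.

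The members and lists were chosen with earlier results of these data known, and the threshold of 100 cells for large classes, the added alternatives, the narrower sets of cells and the cut of 3 Fos UMIs were chosen after values were seen. List genes named are the 3 largest log2 ratios in each direction over all kept cells with at least 50 UMIs, and genes named for varying with Fos are the 10 highest mean r among genes with a thinned UMI in at least 5% of the cells of each set. Other genes singled out were chosen after their values were seen. A gene that this rule named is not reported here.

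On counts simulated for all kept cells (16518 genes, 200 changed by 1 on the log2 scale) 98.5% of the intervals of changed genes held the true ratio. For unchanged genes it was 95.4%. The counts were drawn as Poisson counts, which the intervals assume, so this checks the calculation and not the coverage in these data. Thinning used a random seed of 1. Alternatives varied the filters, gates, scaling, depth, counts added and correlation.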

Additional observations from a re-analysis of the deposited data

Results flagged for a closer look

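The difference between P1 and P7 went opposite ways in a pair of gates for 3 members, with intervals on either side of 0. The difference between gates was not tested. For Fos the log2 ratio of P1 over P7 was 0.32 in the Myh11 gate and -0.15 in the Csf1r gate. For Jund it was 0.24 and -0.42 in the same gates. For Atf3 it was 0.35 in the Pdgfra gate and -0.51 in the Csf1r gate. In Pdgfra cells with 5000 to 20000 UMIs Atf3 was at 0.03. Neutrophil markers differed between ages in the Csf1r and Myh11 gates, and without the cells that carried them Fos was at 0.30 in the Myh11 gate and -0.21 in the Csf1r gate.

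Members were also present in barcodes that entered no comparison. In the 592 barcodes at P1 and 405 at P7 with over 20% mitochondrial UMIs, the 10 members summed to 7151 and 10560 per 1000000 non-mitochondrial UMIs, against 5964 and 5610 in the kept cells. Fosb stood at 1328 and 1343, against 312 and 224 in kept cells, and Egr1 at 1095 and 1327, against 627 and 483. Fos was at 1196 and 2083, against 1173 and 979. In the barcodes with fewer than 200 genes, 2253 at P1 and 160 at P7, the 10 members summed to 3424 and 710.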

How the results depend on the processing

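Each age had 1 library, so leaving out a replicate was not possible, and no p-value was computed. No paired analysis was possible because the result comes from no test. Over all kept cells the count of members past 2-fold towards P1, which was 1 (Fosl1), became 0 after thinning to 2000 UMIs, with the mean of per-cell CPM, without the 5% of cells with most UMIs, in cells with 5000 to 20000 UMIs, and without alveolar and thymocyte cells. The median log2 ratio of 0.24 became 0.52 after thinning, 0.52 with the mean of per-cell CPM and 0.10 with the 5 large gates weighted alike, a setting chosen after seeing the data.

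In the Myh11 gate the count towards P1 became 0 with a mitochondrial limit of 10%, where Fosb stood at 1.00. In the Kcnj8 gate it went from 0 to 3 after thinning and to 1 with at least 2 UMIs of the marker. In the Csf1r gate the count towards P7 went from 0 to 1 after thinning and in cells with 5000 to 20000 UMIs. In the latter cells the member was Jun, at -1.20. The share of all genes past 2-fold was computed for the main setting only. Counts under other settings therefore have no share beside them and are not read as results about the members. In the Cd3e gate, with 4 cells at P1, the count of 4 towards P1 became 2 with the mean of per-cell CPM, and the count of 1 towards P7 became 0 after thinning, in cells with 5000 to 20000 UMIs, with 1 count added and when other markers were admitted. In the Upk3b gate the count of 4 became 1 after thinning and 0 when other markers were admitted, and without cells with Hoxa5, Tbx4 or Foxf1 it was 2 towards P1 and 1 towards P7.

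Among values past 2-fold, the sign turned in these small gates only. In the Cd3e gate Fos went to -0.42 with at least 2 UMIs and -0.55 with 2 supporting markers, and Fosl2 to 0.75 with other markers admitted and 2.91 with 2 supporting markers. In the Upk3b gate Junb went to -0.11 with other markers admitted. Of 973 values of single members under these settings 739 stayed within the counting interval. Over all kept cells the sign of each member was the same in all settings run. The list medians of other immediate early genes (0.46 after thinning) and of AP-1 or Egr targets (0.46 after thinning, 0.33 without a minimum of 20 UMIs) moved as well. Of the 10 genes named for varying with Fos, 8 were kept with all UMIs scaled to CPM and 10 with rank correlation. The cause of these shifts was not tested.

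Age, digestion time, litter and library cannot be told apart, and intervals cover counting error only. Values in the Cd3e and Upk3b gates are limited by their number of cells, and Fosl1 by its 16 and 12 UMIs.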
